A study of Danio rerio with 10 samples.

Results

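The genes described here are those of the muscle contractile machinery and of calcium handling in muscle: myosins, troponins, tropomyosins, sarcomeric actins, Z-disc and filament proteins, calcium pumps, calsequestrin, parvalbumins and creatine kinases. The list of symbols was drawn up with earlier results of these data known, and took in probe sets with a single symbol that begins with myh, myl, tnn, tpm, actc, acta1, actn2, actn3, mybpc, casq, atp2a, ryr, pvalb, ckm, desm or smyd1 (without the nonmuscle and smooth muscle myosins myh9, myh10 and myh11, and without mylip and mylk), or is vmhc, nppa, cmlc1 or unc45b. Of 111 protein-coding RefSeq genes whose symbol meets the rule, 55 had no probe set with that single symbol. 56 genes of the 8793 on the array met this rule, with 66 of its 15502 probe sets. Each gene is shown by its probe set with the highest mean signal. 55 of the 56 genes were tested. The troponin T gene tnnt2c fell under the filter on low signals, with values of 83.6 and 173 in siblings and 157 and 153 in mutants on day 3, and 164, 82.3 and 126 and 153, 172 and 85.5 on day 5. Ryanodine receptors, smyd1, nppa and casq1 were not analysed here.

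Muscle shortens when myosin heads pull on actin filaments. Calcium released from the sarcoplasmic reticulum binds troponin C, the troponin complex shifts tropomyosin off the myosin-binding sites of actin, and calcium pumps of the Atp2a family return the calcium to the store, where calsequestrin holds it. Vertebrates use separate genes for fast skeletal, slow skeletal and cardiac forms of most of these proteins, and the trunk of a zebrafish larva is mostly fast muscle, so that fast muscle transcripts are among the abundant ones of a whole embryo.

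Each of 10 Affymetrix arrays held the RNA of 1 pool of whole zebrafish embryos. Their parents were heterozygous for the cz3 allele of earl grey (egy), which is recessive and affects sart3, the zebrafish counterpart of p110, in the AB/WIK background, and the embryos were raised at 28 °C. All 4 groups come from this line. They were sorted by their appearance into mutants and normal-looking siblings, called wild-type in the labels; sibling pools may hold heterozygotes as well as wild types. The 4 groups were siblings of day 3 (2 pools), mutants of day 3 (2 pools), siblings of day 5 (3 pools) and mutants of day 5 (3 pools). The comparison asks which transcripts differ between mutants and siblings. Titles and ages in the labels give days 3 and 5, but the source name of 1 sibling and 1 mutant pool of day 5 (sibling replicate 2 and mutant replicate 3) gives day 4, as does the design text for the later time. The strain label of sibling replicate 2 of day 3 calls it mutant.

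sart3, which encodes a protein that helps to recycle spliceosomal snRNPs, had signals of 2526 and 2517 in siblings against 462 and 648 in mutants on day 3, and 1771, 2586 and 2036 against 105, 132 and 809 on day 5. All mutant pools lay below all sibling pools, the day 3 sibling pool with the mutant strain label included. The highest mutant value of day 5 was that of replicate 3, which also had the highest summed signal of 10 exocrine pancreas genes (18922 against 5325 and 2958 in the other two, and at least 81662 in siblings). Day 5 calls between mutants and siblings that end or appear without this pool are named with their genes. The arrays were alike in overall brightness, with medians from 596 to 671, and arrays of a group had rank correlations from 0.968 to 0.988. Nothing in the labels says that the pools came from separate clutches, so the p-values measure only the spread between these pools.

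Differences are given on the log2 scale as mutant minus sibling, or day 5 minus day 3, followed by the standard error from a limma model of the 4 group means over 11626 probe sets. A gene is said to have risen or fallen where limma's p-value, adjusted by Benjamini-Hochberg over all of these probe sets, was under 0.05. The signal of a probe set depends on its sequence, so signals are compared between pools and not between genes. Array signals are also relative to the rest of the array, and in whole embryos fewer muscle cells cannot be told apart from less of a transcript per muscle cell.

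Averaged over both days, 26 of 55 muscle genes differed between mutants and siblings, 19 higher and 7 lower in mutants. Over all probe sets 16.5% were called, 6.97% higher and 9.51% lower. The same shares apply beside each count by class or role in the average given below. Among the genes that rose were casq2 (cardiac-type calsequestrin), cmlc1 (a cardiac myosin light chain), mybpc3 (cardiac myosin-binding protein C), tnnt3a (fast troponin T), atp2a1 (the calcium pump of fast muscle), acta1a and actc1a (sarcomeric actins), desma (desmin), unc45b (a chaperone that folds myosin), the creatine kinases ckma and ckmb, and myl12.1 (a light chain of nonmuscle and smooth muscle myosin). The 19 increases lay between 0.22 and 0.62 on the log2 scale. The 7 genes that fell moved further in most cases, from -0.35 to -1.41. They were ckmt2a and ckmt1 (the listed mitochondrial creatine kinases), 3 of 9 parvalbumins (pvalb6, pvalb7 and pvalb8), the tropomyosin tpm1 and the second desmin gene, desmb. ckmt1 is the ubiquitous form, pvalb7 also marks Purkinje cells, and some parvalbumins are used in neurons and hair cells. In whole embryos these falls are therefore not shown to be those of muscle. desmb passed the filter on low signals only through its day 5 signals. The median difference over the 55 genes was 0.203, and -0.021 over all probe sets. 34 of the 56 genes had a mean signal above the 90th percentile of all probe sets. The shares over all probe sets were not matched for signal. Fitted without a trend of variance with mean signal, limma called 14 genes, 7 higher and 7 lower.

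On day 5 alone 24 of 55 genes differed, 18 higher and 6 lower, where 14.6% of all probe sets were called (6.49% higher, 8.15% lower). On day 3, with 2 pools per group, 4 of 55 differed, where 2.06% of all probe sets were called (1.18% higher, 0.886% lower). casq2 was higher, and pvalb6, tpm1 and desmb were lower. Of these, desmb passed the filter on low signals only through its day 5 signals. No gene passed the threshold for the difference between the days (limma, 0 of 55 genes, background 0%), where 5 of 55 genes and 6.63% of all probe sets had an unadjusted p under 0.05, so that the days were not shown to differ. Mutant and sibling pools of day 3 did not overlap for 29 genes higher and 13 lower in mutants, against 21% and 28.1% of all probe sets, and those of day 5 for 22 higher and 9 lower, against 15.1% and 16.8%.

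These counts rest on few pools. Without 1 array at a time, the count for the average of both days was 14 and 16 when day 3 mutant replicate 1 or 2 was left out, 12 and 11 for day 3 sibling replicate 1 or 2, and 17 for day 5 sibling replicate 2. It was between 18 and 29 for the other arrays. The day 5 count was 12 when mutant replicate 2 of that day was left out, 11 for sibling replicate 2, 11 for sibling replicate 3, 21 for mutant replicate 3, and between 18 and 20 for the other arrays. The day 3 count was 0 when sibling replicate 1 or mutant replicate 2 of that day was left out, 1 for its sibling replicate 2, 2 for sibling replicate 3 of day 5, and 3 to 6 for the other arrays. Counting the day 3 sibling pool with the mutant strain label as a mutant left 2 calls in the average, 0 on day 3 and 14 on day 5. The main fit did not pair pools of the same replicate number. With such pairs in the fit the counts were 22 in the average, 4 on day 3 and 21 on day 5.

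**Figure D1:**
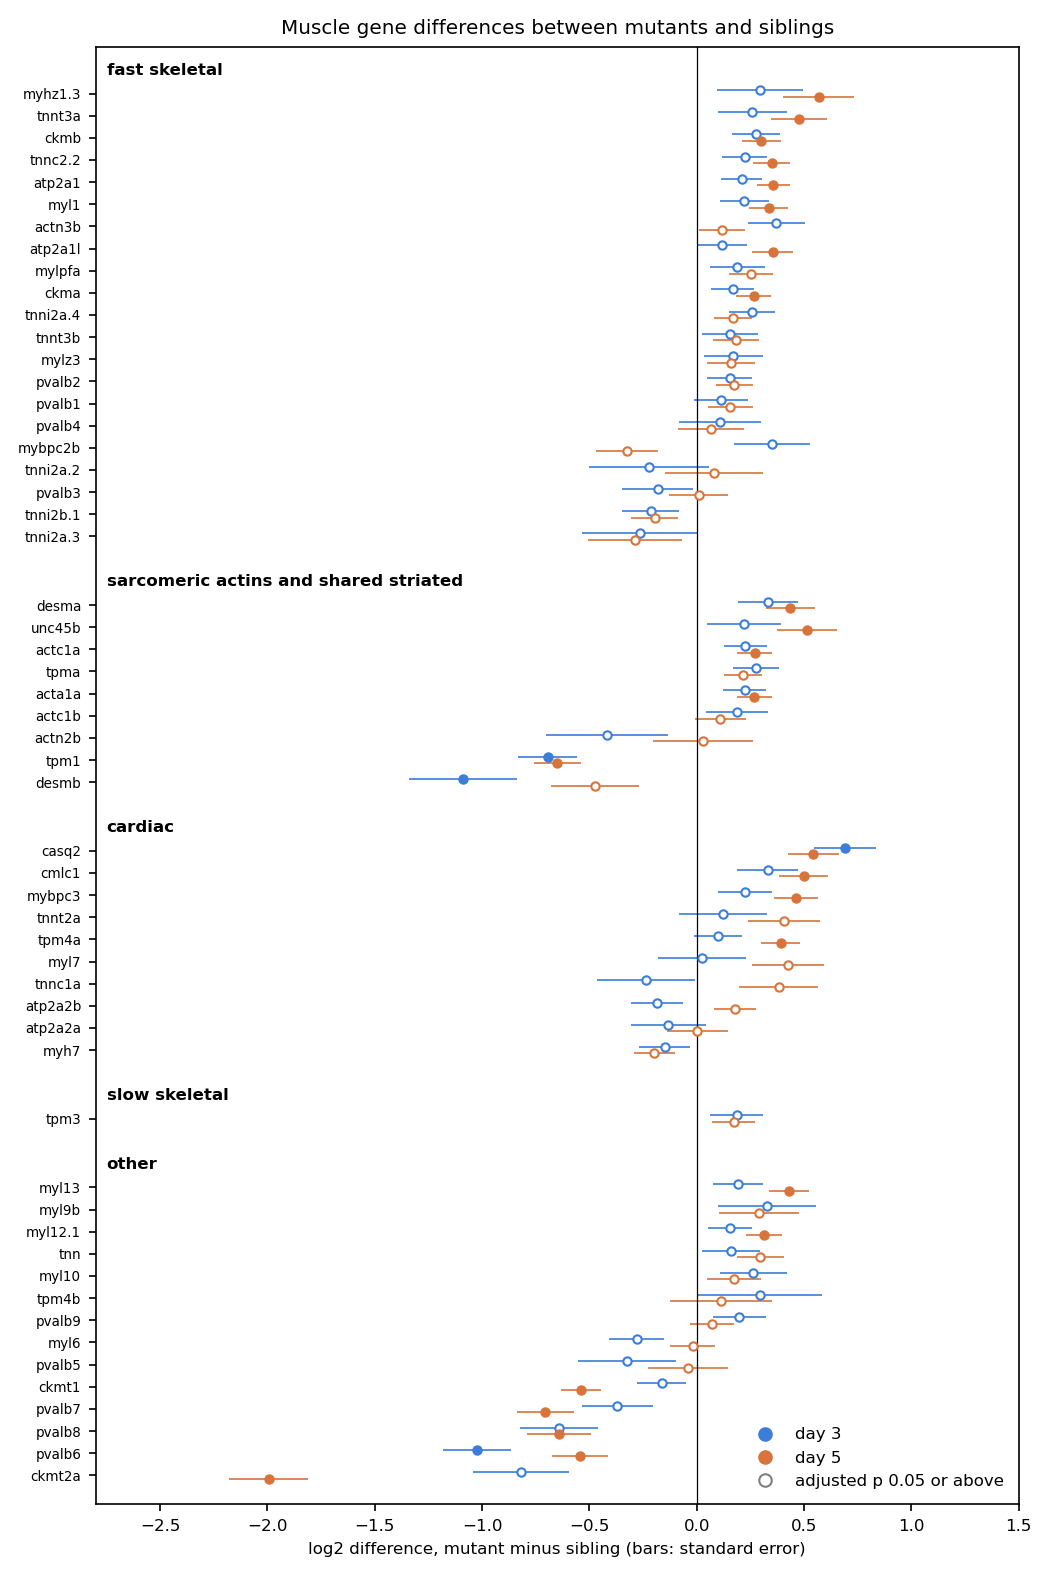
Log2 difference between mutants and siblings for the 55 tested muscle genes (mutant minus sibling, point with standard error) on day 3 (blue, 2 pools per group) and day 5 (orange, 3 pools per group), grouped by the muscle type in which each gene is used and ordered within a group by the average of both days. Filled points passed the threshold; most fast, actin and cardiac genes lie to the right of 0, and ckmt2a on day 5 lies farthest left at -2.00.

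Among the myosin heavy chains and their binding proteins, the heart gene mybpc3 rose. Its signals were 5235 and 5532 in siblings against 6314 and 6297 in mutants on day 3, and 4234, 3954 and 4347 against 6668, 5503 and 5265 on day 5. Mutant pools lay above sibling pools on both days without overlap, and the day 5 difference of 0.46 ± 0.10, adjusted p = 0.0093, was called in all 23 alternative settings. myhz1.3, a fast myosin heavy chain that lies beside the near-identical myha and myhz1.2, had 37768 and 38929.5 in siblings against 47392 and 46664 in mutants on day 3, and 28559, 26956 and 20669 against 39824, 46859.7 and 27832 on day 5. The ranges overlapped on day 5, since mutant replicate 3 lay within the sibling range. The day 5 difference was 0.57 ± 0.16, adjusted p = 0.036, and was called in 12 of 23 settings; without mutant replicate 3 it was 0.78. A probe set shared by 6 fast myosin heavy chain genes, left out because it names several, gave 0.22 ± 0.08 averaged over both days (adjusted p = 0.098). No call was made for myh7, whose RefSeq synonyms include vmhc (ventricular myosin heavy chain), with an averaged difference of -0.17 ± 0.08, adjusted p = 0.15. A probe set shared by myh7 and its neighbour myh7l lay on the other side of 0, at 0.21 ± 0.14 (adjusted p = 0.34).

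mybpc2b, the fast-type myosin-binding protein C, had 1576 and 1758 in siblings against 2289 and 1996 in mutants on day 3, and 1329, 1633 and 1436 against 922, 1323 and 1256 on day 5. Mutants were above siblings on day 3 and below them on day 5, without overlap on either day. Neither difference passed the threshold (0.35 ± 0.18, adjusted p = 0.39, and -0.32 ± 0.14, adjusted p = 0.16).

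The chaperone unc45b, which is needed for myosin to fold into thick filaments, had 939 and 1055 in siblings against 1316 and 1039.5 in mutants on day 3, and 584, 655 and 593 against 769, 978 and 965 on day 5. Day 3 pools overlapped, with 1 mutant pool at the sibling level, and day 5 pools did not. The gene rose on day 5 (0.51 ± 0.14, adjusted p = 0.028), a call kept in 16 of 23 settings and lost without mutant replicate 3 of day 5 (0.47, adjusted p = 0.063, range over the alternatives 0.019 to 0.095). Its averaged call was lost without that pool as well (0.34, adjusted p = 0.060, range 0.023 to 0.16).

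4 of 10 myosin light chains rose and none fell in the average of both days, where 6.97% of all probe sets rose and 9.51% fell. The heart light chain cmlc1 had 1301 and 1160.4 in siblings against 1616 and 1508 in mutants on day 3, and 1220.3, 1324 and 1144 against 1747, 1932 and 1616 on day 5. Every mutant pool exceeded every sibling pool of either day. Its difference was 0.41 ± 0.09, adjusted p = 0.0087, in the average and 0.50 ± 0.12, adjusted p = 0.012, on day 5, where the call was kept in 22 of 23 settings and lost without sibling replicate 3 of day 5. The other heart light chain, myl7, a marker of the whole zebrafish heart tube, had 2311 and 1970.2 in siblings against 2370.2 and 1990.1 in mutants on day 3, and 2347, 2999.8 and 2398 against 3509.8, 4439 and 2672 on day 5. The day 5 ranges overlapped at mutant replicate 3, and the difference of 0.43 ± 0.17, adjusted p = 0.11, was not called. It was called with the replicate number as a block, which pairs same-numbered pools on each day. It was also called without mutant replicate 3 (0.61) and without both pools whose source name says day 4 (0.72).

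Of the fast light chains, myl1 had 45873 and 47354 in siblings against 57369.6 and 51565 in mutants on day 3, and 51348, 45041 and 41684 against 59686, 60208 and 53852 on day 5. Groups did not overlap on either day, and the rise on day 5 was 0.33 ± 0.09, adjusted p = 0.029. mylpfa, the regulatory light chain of fast muscle, had 82588 and 76028 in siblings against 87765 and 93069 in mutants on day 3, and 109649, 89609 and 79576 against 109672, 110782 and 108962 on day 5. The highest sibling pool of day 5, replicate 1, reached the mutant level, and no call was made (0.22 ± 0.08, adjusted p = 0.087, in the average). The same sibling pool was the highest of its group for mylz3, another fast light chain without a call (0.17 ± 0.09, adjusted p = 0.23).

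myl13, a further myosin light chain, had 19506 and 18138 in siblings against 22883 and 20219 in mutants on day 3, and 19264, 20287 and 18446 against 23904, 29101 and 25363 on day 5, and mutants lay above siblings on both days without overlap. On day 5 the difference was 0.43 ± 0.09, adjusted p = 0.0089, and all 23 alternative settings kept the call. myl12.1, a regulatory light chain of nonmuscle and smooth muscle myosin, also rose (0.31 ± 0.08, adjusted p = 0.024, on day 5), with day 5 signals of 28837, 29951 and 27472 in siblings and 34789.9, 37269 and 35128 in mutants. With the replicate block its averaged call was lost (adjusted p = 0.056, range 0.023 to 0.12). A second probe set of myl12.1 gave 0.28 in the average, with an adjusted p of 0.049. The other light chains without a call were myl6 (-0.15 ± 0.08, adjusted p = 0.25), myl9b (0.31 ± 0.15, adjusted p = 0.19) and myl10 (0.22 ± 0.10, adjusted p = 0.17).

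Of 9 tested troponin genes, which encode the calcium switch of the thin filament, 2 rose and none fell in the average. Over all probe sets 6.97% rose and 9.51% fell. tnnt3a, a fast troponin T, had 26192 and 25491 in siblings against 31444 and 30461 in mutants on day 3, and 16556, 23220.0 and 18428 against 23408, 31876 and 25616 on day 5. The lowest day 5 mutant pool lay just above the highest sibling pool. Its day 5 difference was 0.48 ± 0.13, adjusted p = 0.028, kept in 16 of 23 settings. tnnc2.2, a fast troponin C beside its neighbour tnnc2.1 in the genome, had 66942 and 64889.5 in siblings against 79822 and 74152 in mutants on day 3, and 87336, 76887 and 72531 against 96368, 107199 and 97762 on day 5. Mutants were above siblings on both days, and the gene rose in the average (0.29 ± 0.07, adjusted p = 0.013) and on day 5 (0.35 ± 0.09, adjusted p = 0.017).

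No other troponin was called. The second fast troponin T, tnnt3b, gave 0.17 ± 0.08, adjusted p = 0.21, in the average, and the fast troponin I gene tnni2a.4 gave 0.21 ± 0.07, adjusted p = 0.057. A probe set naming both tnni2a.4 and tnni2a.2 was called, at 0.32 ± 0.08 (adjusted p = 0.018), while tnni2a.2, tnni2a.3 and tnni2b.1 on their own had differences of -0.07, -0.28 and -0.21, the lowest adjusted p being 0.13. The tnni2a genes lie side by side and are similar in sequence, so their values are uncertain as single genes. tnnt2a, the troponin T that the zebrafish heart needs to beat, had 521 and 497 in siblings against 588 and 532 in mutants on day 3, and 553, 682 and 579 against 984, 890.5 and 625 on day 5. Mutants were above siblings on day 3 by little, overlapped on day 5 at mutant replicate 3, and the average was 0.26 ± 0.13, adjusted p = 0.20. Without that pool tnnt2a was called on day 5 (0.59) and in the average (0.35), and likewise without both pools whose source name says day 4 (0.67 and 0.39). tnnc1a, the cardiac troponin C, had 341 and 403 in siblings against 382 and 241 in mutants on day 3, and 288, 305 and 262 against 465, 346 and 368 on day 5. Day 3 pools overlapped, day 5 mutants lay above siblings, and neither day was called (-0.24 ± 0.23, adjusted p = 0.70, and 0.38 ± 0.19, adjusted p = 0.20).

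Of 5 tropomyosins, which lie along the actin filament, tpma and tpm4a rose and tpm1 fell. tpma, the skeletal muscle tropomyosin, had 53795 and 59834 in siblings against 69558 and 67849.7 in mutants on day 3, and 61088, 58529 and 51636 against 61959, 71547 and 65300.0 on day 5. Every mutant pool was above every sibling pool, and the call was made in the average only (0.25 ± 0.07, adjusted p = 0.032). It was kept in 11 of 22 alternatives and lost with the replicate block (adjusted p = 0.066, range 0.020 to 0.16). tpm4a, the main tropomyosin of the zebrafish heart, had 5234 and 5819.9 in siblings against 5976 and 5858 in mutants on day 3, and 5061, 5682 and 5804 against 7219, 6896 and 7621 on day 5. Every mutant pool lay above every sibling pool, by 0.10 ± 0.11 on day 3 and 0.39 ± 0.09, adjusted p = 0.013, on day 5. The averaged call was lost without mutant replicate 3 of day 5 (0.23, adjusted p = 0.052, range 0.016 to 0.17).

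tpm1 went the other way on both days. Its signals were 7374 and 6304 in siblings against 4414 and 3970.3 in mutants on day 3, and 14203, 14680.2 and 14023 against 7878, 9085 and 10514 on day 5. Mutant pools lay below sibling pools of the same day without overlap. The difference was -0.70 ± 0.14, adjusted p = 0.021, on day 3 and -0.65 ± 0.11, adjusted p = 0.0019, on day 5, or 1.62-fold and 1.57-fold lower, and the calls for the average and for day 5 were kept in all alternatives tried. The day 3 call was kept in 17 of 23. tpm3, the slow-muscle tropomyosin and the one tested gene classed here as slow skeletal, gave 0.18 ± 0.08, adjusted p = 0.15, in the average. tpm4b gave 0.20 ± 0.19, adjusted p = 0.51.

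Both called actins are sarcomeric. acta1a, a skeletal alpha-actin, had 15358 and 15340.2 in siblings against 17780.5 and 18064 in mutants on day 3, and 18189, 21144 and 21079.7 against 23727, 23983 and 24949.6 on day 5. Mutants exceeded siblings of the same day without overlap. The differences were 0.25 ± 0.07, adjusted p = 0.022, in the average and 0.27 ± 0.08, adjusted p = 0.046, on day 5; the day 5 call was lost with the replicate block (adjusted p = 0.070) and without mutant replicate 3 (0.25, adjusted p = 0.089), with a range of 0.034 to 0.13 over the alternatives. actc1a, a cardiac-type alpha-actin, had 46434 and 43420.4 in siblings against 53649 and 51459.7 in mutants on day 3, and 43609, 41359 and 45674 against 48639.9, 56393 and 52626 on day 5. All mutant pools again exceeded all sibling pools. It was called in the average (0.25 ± 0.06, adjusted p = 0.020) and on day 5 (0.27 ± 0.08, adjusted p = 0.043), where the block gave 0.093 and leaving out mutant replicate 3 gave 0.074 (range 0.015 to 0.21). The block also ended its averaged call (adjusted p = 0.051, range 0.012 to 0.27). actc1b, the actin of larval skeletal muscle, had 114114 and 99383 in siblings against 119145 and 123541 in mutants on day 3, and 169438, 129481 and 116477 against 140271, 151241 and 151504 on day 5. Sibling replicate 1 of day 5 was the highest pool of all, the ranges overlapped, and no call was made (0.15 ± 0.09, adjusted p = 0.31).

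The Z-disc and filament genes did not move together. desma, the main desmin gene, which links myofibrils to each other, had 4625 and 4969 in siblings against 5842 and 6266 in mutants on day 3, and 9220.3, 7090.2 and 8246 against 10539, 12502 and 10201 on day 5. Mutants were above siblings on both days, by 0.38 ± 0.09, adjusted p = 0.012, in the average. desmb, the second desmin gene, had 86.4 and 132 in siblings against 12.6 and 20.1 in mutants on day 3, and 390.0, 371 and 486 against 337, 279 and 230.3 on day 5. Its day 3 signals lay under 231.9, the mean signal below which a probe set was not tested, and mutants were below siblings on both days. desmb passed this filter only through its day 5 signals, so its calls are not free of the filter. The gene fell in the average (-0.78 ± 0.16, adjusted p = 0.0063) and on day 3 (-1.09 ± 0.25, adjusted p = 0.046). The averaged call was kept in 14 of the 15 alternatives in which desmb was tested, where other genes had 22. The day 3 call was kept in 6 of 16 alternatives, where other genes had 23. The day 3 mutant signals of desmb lay under the 64.78 added before the log, which affects the size of both differences. Over the alternatives, changed labels included, the average ran from -1.44 to -0.32 and day 3 from -2.33 to -0.35. actn3b, the fast-fibre alpha-actinin of the Z-disc, had 12056 and 14498 in siblings against 16728 and 17512 in mutants on day 3, and 16271, 15623 and 14677 against 18394, 18053 and 14357 on day 5. Day 5 ranges overlapped and the average of 0.24 ± 0.09, adjusted p = 0.074, was not called, nor was that of actn2b (-0.19 ± 0.18, adjusted p = 0.53). actn3b was called in the average with the replicate block, and without mutant replicate 3 of day 5 (0.30).

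**Figure D2:**
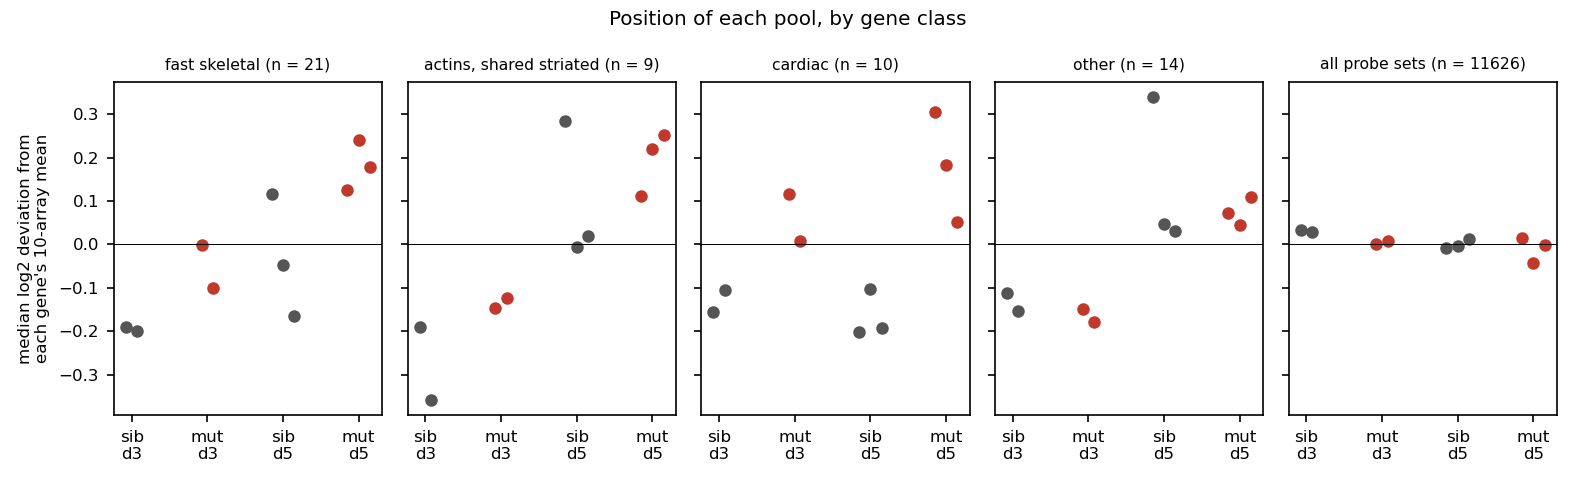
Median over genes of the log2 deviation from each gene's mean over the 10 arrays, 1 point per pool, for siblings (sib, grey) and mutants (mut, red) on day 3 (d3) and day 5 (d5), in 4 classes of muscle gene and over all 11626 probe sets. The median of the cardiac genes is higher in all 5 mutant pools than in all 5 sibling pools, though 3 of the 10 genes had a negative average difference. The median of the fast genes in sibling replicate 1 on day 5 lies just under the lowest mutant pool of that day (0.115 against 0.126). The medians over all probe sets stay within 0.05 of 0.

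Grouped by the muscle in which they are mainly used, 8 of 21 fast skeletal genes, 4 of 10 cardiac genes and 5 of 9 sarcomeric actins and shared striated genes rose in the average of both days. Over all probe sets 6.97% were called higher and 9.51% lower. None of the fast and none of the cardiac genes fell, and 2 shared genes (tpm1 and desmb) did. Called or not, differences were below 0 for 4 of 21 fast, 3 of 10 cardiac and 3 of 9 shared genes. The median differences were 0.21, 0.24 and 0.25. Of the 14 genes classed as other, 2 rose and 5 fell (ckmt1, ckmt2a, pvalb6, pvalb7 and pvalb8), with a median of -0.007. Cardiac genes had a median of 0.06 on day 3 and 0.40 on day 5, and fast genes 0.17 and 0.18. The difference between the days was not called for any of them. Sibling replicate 1 of day 5 had a median deviation of 0.115 for fast genes, against -0.047 and -0.165 in sibling replicates 2 and 3. Its 3 prime to 5 prime signal ratio of the actin controls was 9.24, against 5.5 and 5.28 in those pools. Without it actc1b, myl10, mylpfa, mylz3, pvalb2, tnni2a.4 and tnnt3b were called higher in the average. The averaged calls of tnnt3a, tpm4a and unc45b were lost. The part of the ratio in these values was not tested.

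Of 4 calcium pump genes of the sarcoplasmic reticulum, atp2a1 and its relative atp2a1l rose in mutants, and both atp2a2 genes did not pass the test. atp2a1, the pump of fast muscle, had 62398 and 61431 in siblings against 70819 and 72383 in mutants on day 3, and 58941, 62756 and 58021 against 70314, 79049.8 and 81207 on day 5. Every mutant pool exceeded every sibling pool, and the difference was 0.28 ± 0.06, adjusted p = 0.0082, in the average and 0.36 ± 0.08, adjusted p = 0.0089, on day 5. The day 5 call was kept in 22 of 23 alternatives and lost without both pools whose source name says day 4. Its relative atp2a1l had 21609.6 and 22529 in siblings against 25463 and 22510.2 in mutants on day 3, and 30830.5, 29890.5 and 25587 against 38135, 38200.5 and 33786 on day 5. Only the day 5 groups were apart there, with 0.35 ± 0.09, adjusted p = 0.026. Its averaged call (0.24 ± 0.07, adjusted p = 0.0496) was lost with the replicate block (adjusted p = 0.0505, range 0.029 to 0.18).

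Of the pumps used in heart and slow muscle, atp2a2a had 921 and 971 in siblings against 911 and 807 in mutants on day 3, and 1159.9, 1386 and 1279 against 1057, 1271 and 1537 on day 5. The day 5 ranges overlapped and the average difference was -0.06 ± 0.11, adjusted p = 0.75. A second probe set of atp2a2a gave -0.61 in the average with an adjusted p of 0.064, so the probe sets of this gene did not give 1 value. atp2a2b had 4768 and 5007 in siblings against 4239 and 4348 in mutants on day 3, and 2794, 2897 and 3009.8 against 3197, 3010.4 and 3699.7 on day 5. Mutants were lower on day 3 and, by a margin of less than 1 signal unit at the nearest pools, higher on day 5, and neither difference was called (-0.18 ± 0.12, adjusted p = 0.54, and 0.18 ± 0.10, adjusted p = 0.26).

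Calsequestrin holds calcium inside the sarcoplasmic reticulum. casq2, the form of heart and slow muscle, gave the largest increase in the average among the 55 genes. Its signals were 4360.0 and 4914 in siblings against 6790.1 and 8304 in mutants on day 3, and 3804, 4769 and 4362 against 6961, 6207 and 5741 on day 5. Every mutant pool lay above every sibling pool of both days. The difference was 0.69 ± 0.15, adjusted p = 0.030, on day 3 (1.61-fold), 0.54 ± 0.12, adjusted p = 0.0089, on day 5 (1.46-fold), and 0.62 ± 0.09, adjusted p = 0.00072, in the average. The day 3 call was kept in 17 of 23 alternatives; the arrays whose omission ended it were both sibling pools and mutant replicate 2 of day 3, and sibling replicate 3 of day 5. The day 5 call was lost in 1 alternative of 23, with the day 3 label of sibling replicate 2 changed.

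Parvalbumins buffer calcium in the cytosol of fast fibres and, for some genes of the family, of neurons and hair cells. The genes pvalb1 to pvalb4, of which pvalb1 and pvalb2 are typical of fast muscle, were not called in any comparison of mutants with siblings. pvalb1 had 79195 and 75524 in siblings against 88965 and 78608 in mutants on day 3, and 104116, 92181 and 82515 against 91300.2, 106769.6 and 112578 on day 5. pvalb2 had 86922 and 84159.8 in siblings against 94504 and 95723 in mutants on day 3, and 117002, 103734 and 95880.0 against 111567, 126269 and 119102 on day 5. Ranges of both overlapped on day 5, and the averaged differences were 0.13 ± 0.08, adjusted p = 0.30, and 0.16 ± 0.07, adjusted p = 0.12. pvalb3 had 3444 and 2667 in siblings against 2613 and 2713 in mutants on day 3, and 3961, 2746 and 3139 against 3422, 3144 and 3232 on day 5, with -0.09 ± 0.11, adjusted p = 0.64. Mutants and siblings overlapped there on both days. pvalb4 had 15817 and 13236 in siblings against 18902 and 12906 in mutants on day 3, and 23208, 19045 and 18417 against 17465, 23883 and 22396 on day 5, also with overlap on both days (0.09 ± 0.12, adjusted p = 0.69). pvalb5 and pvalb9 had averages of -0.18 and 0.13, with adjusted p of 0.45 and 0.29.

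The other 3 parvalbumins fell. pvalb6 had 2243 and 2042 in siblings against 1111 and 934 in mutants on day 3, and 3045, 3209 and 2609.8 against 1828, 1869.8 and 2338 on day 5. Both day 3 mutant pools lay below every other pool, and day 5 mutants below day 5 siblings. The difference was -1.02 ± 0.16, adjusted p = 0.0048, on day 3 (2.03-fold lower) and -0.54 ± 0.13, adjusted p = 0.014, on day 5. pvalb7, a marker of Purkinje cells in the zebrafish cerebellum, had 1766 and 1685 in siblings against 1240.1 and 1406 in mutants on day 3, and 5585, 4896 and 4956 against 2828, 2756 and 3911 on day 5. Mutants lay below siblings on both days, and the fall of -0.71 ± 0.13, adjusted p = 0.0038, on day 5 was kept in all 23 alternatives. 6 of 9 neuron markers also fell in mutants (median -0.35 in the average), and their part in the pvalb6, pvalb7 and pvalb8 results was not tested. pvalb8, whose RefSeq synonym ocma stands for oncomodulin, had 5678 and 4988 in siblings against 3868 and 2964 in mutants on day 3, and 10999, 11753 and 11238 against 5761, 7189 and 9117 on day 5. Its difference had the same size on both days, -0.64 ± 0.18 on day 3 (adjusted p = 0.10) and -0.64 ± 0.15, adjusted p = 0.013, on day 5, and the day 5 call was lost without sibling replicate 2 of that day. pvalb8 lies next to pvalb4 and near pvalb1 and pvalb5 in the genome, and those neighbours were not called.

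Of 4 creatine kinases, which keep ATP available to the contracting fibre, the cytosolic muscle forms ckma and ckmb rose and the mitochondrial forms ckmt1 and ckmt2a fell. A further cytosolic form outside the list, the brain-type ckbb, fell (-0.36). ckma had 66394 and 67549 in siblings against 79195 and 71366 in mutants on day 3, and 80086, 72324 and 68117 against 88567, 89428 and 86589.5 on day 5. ckmb had 65852 and 60122 in siblings against 74101 and 78369 in mutants on day 3, and 84236, 75236 and 68564 against 86661, 97323 and 96115 on day 5. Mutants were above siblings without overlap on both days for each gene. The averages were 0.22 ± 0.06, adjusted p = 0.036, and 0.29 ± 0.07, adjusted p = 0.016, and the day 5 differences 0.27 ± 0.08, adjusted p = 0.044, and 0.30 ± 0.09, adjusted p = 0.044. Both day 5 calls were lost with the replicate block and without mutant replicate 3. The day 5 adjusted p of ckma was then 0.10 and 0.064 (range over the alternatives 0.015 to 0.16), and that of ckmb 0.10 and 0.094 (range 0.015 to 0.20). The block also ended the averaged call of ckma (adjusted p = 0.090, range 0.011 to 0.32).

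ckmt2a, the mitochondrial creatine kinase of the sarcomeric type, showed the largest difference of all 55 genes. Its signals were 4799.6 and 3692 in siblings against 2363 and 2355 in mutants on day 3, and 7081, 6224 and 6286 against 1126, 1658 and 2132 on day 5. Mutants lay below siblings on both days, and siblings of day 5 were above those of day 3 while mutants of day 5 were below those of day 3. The difference was -2.00 ± 0.18, adjusted p = 1.7e-05, on day 5, 3.99-fold lower, and -0.82 ± 0.22, adjusted p = 0.087, on day 3. Its day 5 call was kept in all 23 alternatives, and so was that of ckmt1, the ubiquitous mitochondrial form. ckmt1 had 2738 and 2778 in siblings against 2393 and 2524 in mutants on day 3, and 4046, 3783 and 4113 against 2566, 2712 and 2879 on day 5. Mutants lay below siblings on both days, and the day 5 difference was -0.54 ± 0.09, adjusted p = 0.002. All 9 tested photoreceptor markers and 6 of 9 neuron markers also fell in mutants in the average. The summed signal of 10 photoreceptor genes was 12835, 30356 and 61347 in mutant replicates 1 to 3 of day 5, against at least 168597 in siblings. The part of photoreceptors and neurons in the falls of ckmt2a and ckmt1 was not tested.

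All 6 genes that fell on day 5 (ckmt2a, ckmt1, tpm1, pvalb6, pvalb7 and pvalb8) had their highest day 5 mutant signal in replicate 3, the pool with the highest sart3 signal among mutants of that day. Without this pool, which as the highest of its group makes each fall smaller, their differences were -2.20, -0.58, -0.75, -0.65, -0.86 and -0.81. Of the 18 genes that rose on day 5, 8 had their lowest mutant signal in that pool. Neither count was set beside the share over all called probe sets, so they are not shown to be particular to muscle genes. A link to the sart3 signal was not tested.

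**Figure D3:**
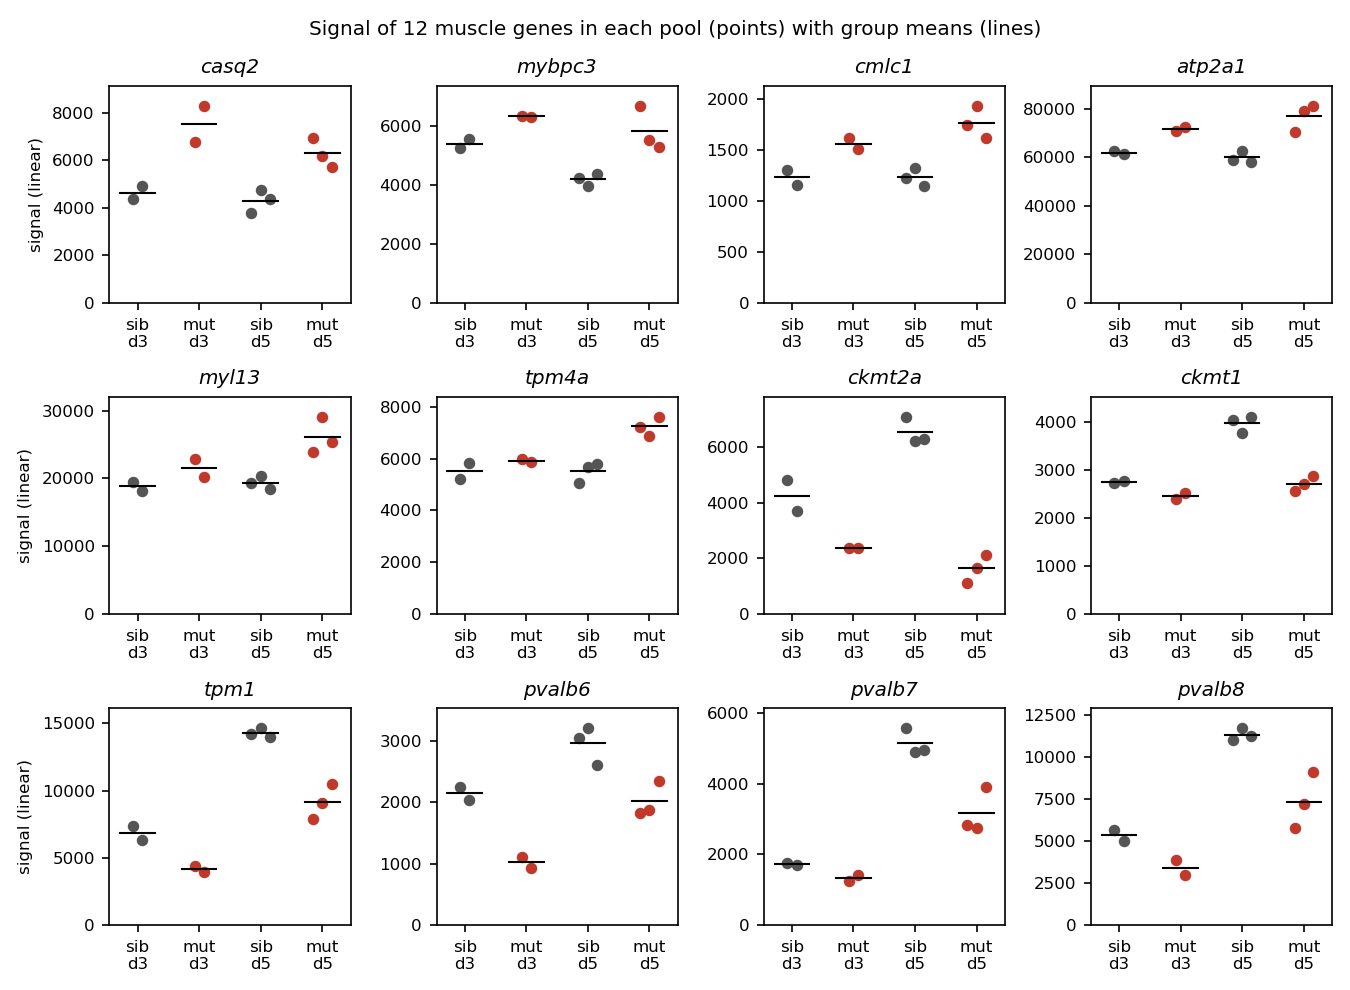
Linear signal of 12 muscle genes in each pool (points) with group means (lines), for siblings (sib, grey) and mutants (mut, red) on day 3 (d3, 2 pools each) and day 5 (d5, 3 pools each); each axis starts at 0 and has its own scale. The first 6 genes rose in day 5 mutants and the last 6 fell, with ckmt2a at 1126, 1658 and 2132 in day 5 mutants against 7081, 6224 and 6286 in siblings.

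In siblings, 16 of 55 genes changed from day 3 to day 5, 11 up and 5 down, where 18.5% of all probe sets were called (8.39% up, 10.1% down). Increases were called for pvalb7 (1.54 ± 0.15, adjusted p = 0.00017), pvalb8 (1.08), tpm1 (1.06) and desma (0.76), followed by ckmt1 (0.52), pvalb6 (0.45) and myl6 (0.43). acta1a, atp2a1l and pvalb2 also rose, by 0.39, 0.38 and 0.30, as did desmb (1.47), whose day 3 signals lay under the filter limit. Since desmb was tested only because of its day 5 signals, its rise is not free of that filter. The pvalb2 and pvalb6 calls were lost with the replicate block, and that of pvalb2 also without mutant replicate 3 of day 5. The genes that fell were atp2a2b (-0.74 ± 0.11, adjusted p = 0.0014), unc45b (-0.65), myhz1.3 (-0.61), tnn (-0.40) and mybpc3 (-0.36). For tnn a second probe set gave -0.12 (adjusted p = 0.71), and the median over its probe sets ended the call. tnn meets the symbol rule but encodes tenascin W, an extracellular matrix protein and not a troponin. Its signals were 6699 and 6683 in siblings against 7927 and 7076 in mutants on day 3, and 5316, 4388 and 5531 against 6952, 5910.3 and 5860.1 on day 5, and it was not called between mutants and siblings (0.23 ± 0.09, adjusted p = 0.097). The sibling count was 6 when either day 3 sibling pool was left out, 9 for sibling replicate 1 or 2 of day 5, and 14 to 17 for the other arrays.

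In mutants, 19 of 55 genes changed from day 3 to day 5, 15 up and 4 down, with 19% of all probe sets called (8.57% up, 10.4% down). Among those that rose was pvalb7, which was 2.3-fold higher on the linear scale. Smaller increases, given as log2 differences, were those of tpm1 (1.11), pvalb8 (1.08), pvalb6 (0.93), desma (0.86), actn2b (0.84) and pvalb5 (0.71). desmb also rose, but its day 3 mutant signals lay under the 64.78 added before the log, which sets its size: the value was 2.09, and ran from 0.83 to 3.66 with a larger or smaller added number. This gene also passed the filter only through its day 5 signals, so its rise is not free of that filter. The value of pvalb5 rested on the day 3 mutant pools, since it was 1.16 without replicate 1 and 0.26, no longer called, without replicate 2. The calls of actn2b, atp2a2a, pvalb2, pvalb9 and myh7 were lost without mutant replicate 3 of day 5. The genes that fell were mybpc2b (-0.85 ± 0.16, adjusted p = 0.004), pvalb9 (-0.42), atp2a2b (-0.38) and myh7 (-0.34). actn2b, a cardiac and skeletal alpha-actinin, had mutant signals of 376 and 252 on day 3 against 757, 454 and 637 on day 5, without overlap. Its sibling signals of 534 and 352 on day 3 and 791, 515 and 501 on day 5 overlapped. pvalb5 had mutant signals of 2877 and 1512 on day 3 against 3379, 3900.4 and 3110.2 on day 5, and sibling signals of 2798 and 2476 against 3789.5, 3763 and 3133. The day 3 mutant pools lay on either side of both day 3 sibling pools. pvalb9, whose synonym ocmb also stands for oncomodulin, had mutant signals of 12678 and 10308 on day 3 against 8859, 9192 and 7696 on day 5, and sibling signals of 10372 and 9558 against 8047, 8342 and 8036. Day 5 pools lay below day 3 pools in both genotypes. Left out singly, either day 3 mutant pool brought the mutant count to 11, where the other arrays gave 14 to 23.

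tpm1, pvalb6, pvalb7 and pvalb8, which were lower in mutants than in siblings, rose with age in both genotypes. Sibling and mutant pools of day 5 did not overlap with those of day 3 for 27 and 29 genes upward, against 25.3% and 21.2% of all probe sets, and for 11 and 8 genes downward, against 30.7% and 23.3%. The direction of the age change depended on the scaling: with quantile normalization in place of the deposited scaling, 9 genes rose and 12 fell in siblings, the median over the 55 genes being -0.031 in place of 0.217. With each array centred on its median, 10 rose and 2 fell in siblings. For mutants quantile normalization gave 13 up and 5 down, with a median of 0.025 in place of 0.269. The 3 prime to 5 prime signal ratio of the actin control probe sets also moved with age, from between 1.76 and 2.25 on day 3 to between 3.9 and 9.24 on day 5, with day 5 siblings at 5.28 to 9.24 and day 5 mutants at 3.9 to 5.99. The ratio of the GAPDH controls moved the other way, from between 1.68 and 1.88 on day 3 to between 1.27 and 1.5 on day 5. The part of either in the results was not tested.

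**Figure D4:**
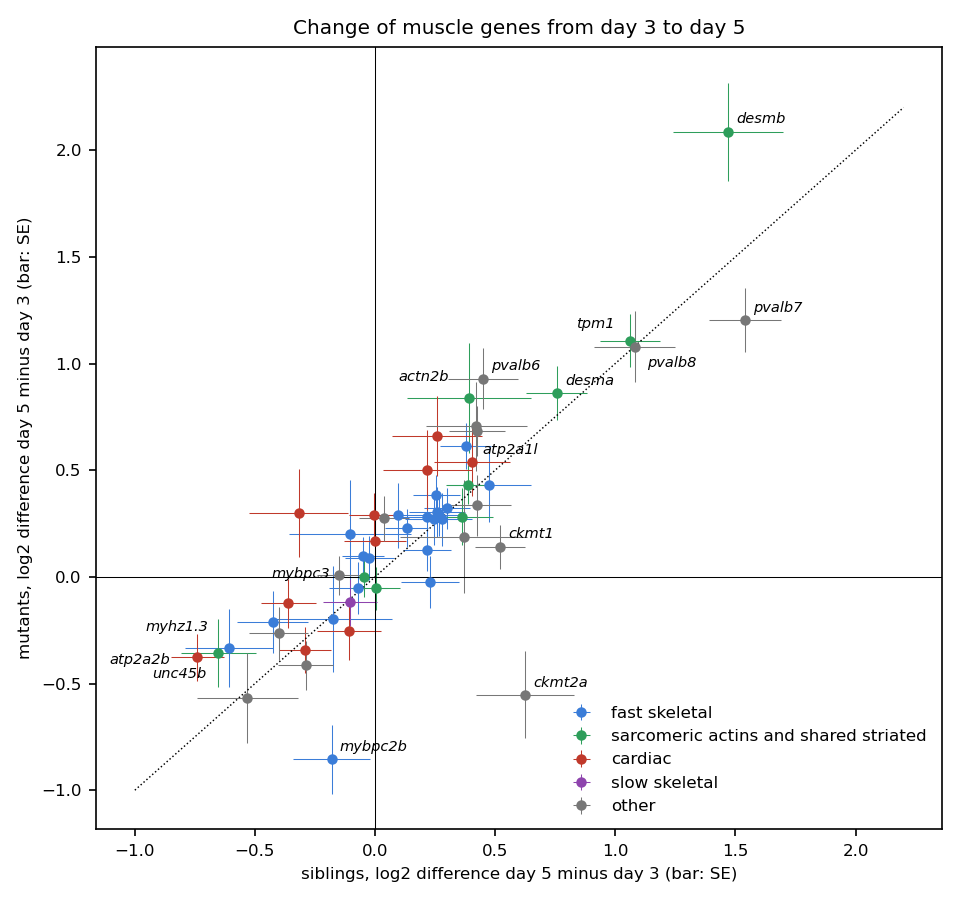
Log2 change from day 3 to day 5 in siblings (horizontal axis) and in mutants (vertical axis) for the 55 tested muscle genes, with standard errors and colours by class; the dotted line marks equal change. Most genes lie near the line, and ckmt2a lies below it, at 0.62 in siblings and -0.55 in mutants.

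Lists of further muscle genes were examined in the average of both days, where 6.97% of all probe sets were called higher and 9.51% lower. 9 of 18 other sarcomere and Z-disc genes rose in the average of both days and 1 fell, with a median of 0.26. The genes that rose most were ldb3a (0.48 ± 0.08, adjusted p = 0.0018) and ldb3b (0.35), Z-disc proteins, flncb (0.43), a filamin, and myoz1b (0.39), a Z-disc partner of calcineurin. mybpha, a myosin-binding protein H, fell (-0.76 ± 0.09, adjusted p = 0.00014), with mean signals of 1354 in siblings and 679 in mutants on day 3, and 2225 and 1469.8 on day 5. 2 of 15 genes for myosin chaperones and muscle proteostasis rose, hsp90aa1.1, the Hsp90 form that works with Unc45b on myosin in zebrafish muscle (0.87 ± 0.09, adjusted p = 4e-05), and ahsa1a, an Hsp90 co-chaperone (0.39).

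Of 12 excitation-contraction coupling genes, tmem38a rose (0.35 ± 0.09, adjusted p = 0.019) and musk and tmem38b fell (-0.85 and -0.30). musk is the receptor kinase that organises the neuromuscular synapse. 1 of 17 genes in the muscle energy list rose, pgam2 (0.41 ± 0.07, adjusted p = 0.002). In that list pkma, pygmb and ckbb, the brain-type creatine kinase, fell (-0.68, -0.46 and -0.36). Among 16 myogenic regulators, mef2ca alone was called, a share near that of all probe sets (0.40 ± 0.11, adjusted p = 0.021), while myod1 was not (0.27 ± 0.15, adjusted p = 0.27). 0 of 7 tested cardiac regulators were called by limma, 0 had an unadjusted p under 0.05, and nkx2.5 was under the filter. The slow myosin heavy chain smyhc1 gave 0.26 ± 0.10, adjusted p = 0.10. In the list of smooth muscle and nonmuscle contractile genes, cnn3a and actn1 rose (0.37 and 0.34) and 4 of 14 fell: smtnb (smoothelin), acta2 (smooth muscle actin), tagln (transgelin) and mylka (myosin light chain kinase), at -0.95, -0.86, -0.60 and -0.36. The part of smooth muscle in the fall of tpm1 was not tested.

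Markers of other tissues moved with the mutant groups. All 9 tested exocrine pancreas markers fell (median -3.01), and their summed signal over 10 genes was 14668 to 20165 in siblings against 2849 to 3372 in mutants on day 3, and 81662 to 116513 against 2958 to 18922 on day 5. All 9 tested photoreceptor markers fell (median -2.07), with summed signals of 90073 to 106964 against 32974 to 35620 on day 3 and 168597 to 226327 against 12835 to 61347 on day 5. 6 of 9 neuron markers fell (median -0.35), with sums of 71921 to 76738 against 59160 to 60773 on day 3 and 75547 to 81905 against 55246 to 62758 on day 5. None of these markers was at 0 in any group. Erythroid markers gave 2 higher of 5, cartilage 1 lower of 7, and epidermis 1 higher and 1 lower of 8. The part of these tissues in the muscle results was not tested.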

How the data were processed

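RNA of 10 embryo pools was labelled from 7 µg and hybridised to zebrafish arrays, per the labels' protocols. The deposited values are linear probe set intensities made with MAS5, per the submitters' processing notes; its version and settings were not given in the sources used here. Trimmed means (2% from each end) of the 10 arrays lay between 1500.35 and 1500.42, so the authors' intensities are scaled to a common mean. No detection calls were used here, and the number of arrays limits the precision.

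Of 15502 probe sets (115 controls left out), 10795 had 1 gene symbol, 135 several and 4572 none. Values were taken as log2(intensity + 64.78), 64.78 being 10% of the overall median of 647.8, so log2 differences understate changes of dim probe sets. The lowest 25% by mean signal (3876 probe sets, limit 231.9) were left out, which left 11626. limma 3.58.1 in R 4.3.3 was fitted to the 4 group means over all 10 arrays with the prior variance following the mean signal (residual degrees of freedom 6, prior 6.51). The Benjamini-Hochberg adjustment ran over every tested probe set, with a threshold of 0.05. Values after ± and the bars in the figures are standard errors. The fit was run on simulated independent pools with known differences, which does not test the calls given here. Fold values are 2 to the power of the log2 difference.

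The genes and gene lists were chosen with earlier results of these data known. Values per array are given for muscle genes past the threshold (up to 12 per direction in each mutant comparison, 8 in each age comparison) and for genes chosen as leaders of their role; those of actc1a, myl12.1 and tnnt2c were added after their values were seen. Other genes are named from the lists, up to 4 per direction by size, plus sart3, smyhc1, hsp90aa1.1, myod1 and nkx2.5. All 56 symbols matched RefSeq gene names. Same-numbered mutant and sibling pools deviated together on day 5 (correlations 0.232, 0.265 and 0.229) but not on day 3 (-0.0472 for both pairs), so the numbers were taken to pair the day 5 pools. Alternatives were other pseudocounts, filters and scalings, no trend, array weights, a replicate block, fewer arrays and changed labels. The block paired same-numbered pools on both days, day 3 included.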

Additional observations from a re-analysis of the deposited data

Results flagged for a closer look

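In 3 genes a pair of effects pointed in opposite directions, with no overlap of pools in either. Non-overlap was common over all probe sets, with 21% higher and 28.1% lower in mutants on day 3, and 15.1% and 16.8% on day 5. The share of all probe sets with such opposite pairs was not counted, so the 3 are not shown to be particular to muscle genes. atp2a2b was lower in mutants on day 3 and higher on day 5, a change in the mutant difference of 0.36 on the log2 scale (limma, adjusted p = 0.70). mybpc2b was higher in mutants on day 3 and lower on day 5, a change of -0.67 (limma, adjusted p = 0.59). ckmt2a was higher on day 5 than on day 3 in siblings and lower in mutants, a difference in the age change of -1.18 (limma, adjusted p = 0.33). None of the 3 differences passed the threshold. Without mutant replicate 3 of day 5 the value for ckmt2a was -1.38, with an adjusted p of 0.029.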

How the results depend on the processing

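Directions of the called muscle genes held in all alternatives tried, and the counts moved. Without the mean-variance trend, called genes numbered 14 of 26 in the average of both days, 2 of 4 on day 3, 13 of 24 on day 5, 9 of 16 for age in siblings and 12 of 19 for age in mutants. Fitting only the arrays compared gave 14 on day 5 and 12 for age in mutants. Median centring gave 2 on day 3, and array weights 27 for age in siblings. When the day 3 sibling pool with the mutant strain label changed group, the counts were 2 in the average, 0 on day 3, 14 on day 5 and 4 for age in siblings. Without both pools whose source name says day 4, an alternative chosen after seeing the data, day 5 gave 15. Leaving out 1 array at a time gave 11 to 29 in the average, 0 to 6 on day 3, 11 to 21 on day 5, 0 to 1 for the difference between days, 6 to 17 for age in siblings (6 without either day 3 sibling pool, 9 without sibling replicate 1 or 2 of day 5) and 11 to 23 for age in mutants (11 without either day 3 mutant pool). The cause of these changes was not tested, but fits without an array hold fewer samples.

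With the replicate block the counts were 22 in the average, 4 on day 3, 21 on day 5, 0 for the difference between days, 16 for age in siblings and 17 for age in mutants. The block lost 5 calls in the average (actc1a, atp2a1l, ckma, myl12.1 and tpma), 1 on day 3 (desmb), 4 on day 5 (acta1a, actc1a, ckma and ckmb), 2 for age in siblings (pvalb2 and pvalb6) and 2 for age in mutants (myh7 and pvalb2). It added actn3b in the average, pvalb8 on day 3, myl7 on day 5, and ckmt2a and tnnt3a for age in siblings. Calls kept under every alternative run for them numbered 2 of 26 in the average (ckmt2a and tpm1), 0 of 4 on day 3, 6 of 24 on day 5 (ckmt1, ckmt2a, mybpc3, myl13, pvalb7 and tpm1), 4 of 16 for age in siblings (atp2a2b, desma, pvalb7 and tpm1) and 8 of 19 for age in mutants (atp2a1l, desma, desmb, mybpc2b, myl6, pvalb7, pvalb8 and tpm1; desmb fell under the filter in several alternatives and had 16, the others up to 23). The age call of desmb listed here is for a gene that its day 5 signals carried past the filter. Quantile normalization moved the median of the muscle genes in the average from 0.203 to 0.119, and median centring to 0.263. On day 3 quantile normalization moved the median difference between mutants and siblings from 0.161 to 0.051.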

Other observations

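By class, the change from day 3 to day 5 in siblings was called for few genes, where 8.39% of all probe sets rose and 10.1% fell. Of 10 cardiac genes 2 fell (atp2a2b and mybpc3), with a median of -0.06 on the log2 scale. Of 9 sarcomeric actins and shared striated genes 4 rose and 1 fell (unc45b), with a median of 0.39. Of 21 fast genes 2 rose (atp2a1l and pvalb2) and 1 fell (myhz1.3), with a median of 0.21. In mutants, where 8.57% of all probe sets rose and 10.4% fell, the cardiac median was 0.23, with myl7 and atp2a2a higher and atp2a2b and myh7 lower. For atp2a2a a second probe set gave 0.08 (adjusted p = 0.89), and the median over its probe sets ended the call. The mutant median was 0.43 for the shared genes, with 5 higher, and 0.23 for the fast genes, with 3 higher and 1 lower. Whether the classes differ was not tested, and under quantile normalization the median over all 55 genes in siblings was -0.031 in place of 0.217. In mutants that median was 0.025 in place of 0.269.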
